A study of Mus musculus with 12 samples.

Results

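The genes described here encode the proteins of the mitochondrial ribosome. They were taken as every protein-coding row of the deposited count table whose symbol starts with Mrpl or Mrps followed by a digit, which gave 78 genes among the 54532 in the table. By the subunit in which each protein sits, 51 belong to the large subunit and 26 to the small subunit. Mrps36 carries the family's symbol but encodes a component of the alpha-ketoglutarate dehydrogenase complex. A low-count filter on all genes kept 77 of the 78. The exception, Mrpl53, had 0 counts in all 12 libraries, and 88.0% of its exonic bases are shared with other annotated genes.

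The cells were wild-type 3T3-L1, a mouse fibroblast-like line that can be turned into adipocytes. All libraries were taken on day 6, with 3 per group. The untreated group was labelled as preadipocytes. The DMI group received 0.5 mM IBMX (a phosphodiesterase inhibitor), 1 µM dexamethasone (a glucocorticoid) and 10 µg/ml insulin. The last 2 groups received the same cocktail together with luteolin or with quercetin. Luteolin is a flavone, and quercetin is the flavonol that carries an additional hydroxyl group. The labels give no dose or exposure time for either compound, so their values stand side by side and are not at doses known to match. The treatment text is identical on every sample, so the untreated group rests on its own treatment label. Nothing in the labels says that replicates are separate cultures, and the p-values then measure only the spread between these libraries, which may be technical.

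Mitochondrial ribosomes make the few respiratory chain proteins that mitochondrial DNA encodes. Their RNAs come from mitochondrial DNA, but all of their proteins are encoded in the nucleus, made in the cytosol and imported. Some of these proteins have counterparts in bacterial ribosomes and others are found only in mitochondria. White adipocytes build up mitochondria as they differentiate, and the mitochondrial ribosome stands between that build-up and a working respiratory chain.

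Total counts per library ran from 14522182 to 19436796. Replicates differed by more than sampling noise in every pair, with a chi-square per gene of 2.78 or more. The adipocyte label was borne out by its markers, since all 8 of 8 listed adipocyte markers rose with DMI, and their summed level was 721 to 745 CPM (counts scaled to library size) in untreated libraries. Markers of endothelial, epithelial, muscle and brown fat cells were too low to test, and the muscle marker Myog had 0 counts. Of the macrophage and leukocyte markers, Adgre1 had 0 counts and Ptprc 4 over all libraries. Cd68 and Csf1r had 230 and 159, with group means of 0.83 to 1.63 and 0.62 to 0.97 CPM. Before any result, 3 libraries have to be set apart. Adipocyte markers summed to 6263 CPM in DMI replicate 3 against 19728 and 22046 in its group, to 5745 CPM in luteolin replicate 3 against 12129 and 13522, and to 3267 CPM in quercetin replicate 3 against 6991 and 6834. Quercetin replicate 3 also departed from its group along GC content, as given further on.

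Mitochondrial ribosomal protein genes took a larger share of all counts in induced than in untreated cells. In untreated libraries they took 0.202%, 0.200% and 0.205% of all counts. In the DMI libraries the share was 0.322%, 0.352% and 0.253%, and with luteolin it was 0.321%, 0.327% and 0.284%. With quercetin it was 0.301%, 0.339% and 0.204%. Every DMI and luteolin library lay above all untreated ones, whereas the third quercetin library lay among them. With counts from mitochondrial DNA left out of the total, which made up 4.65% of that library, it stood at 0.214%, above the untreated maximum of 0.209%. In each induced group the third library was the lowest. With 3 libraries a group, an exact permutation test of this share cannot go below a 2-sided p of 0.1, and none was run. Because these are bulk samples, fewer cells of a type and less RNA per cell cannot be told apart.

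**Figure D1:**
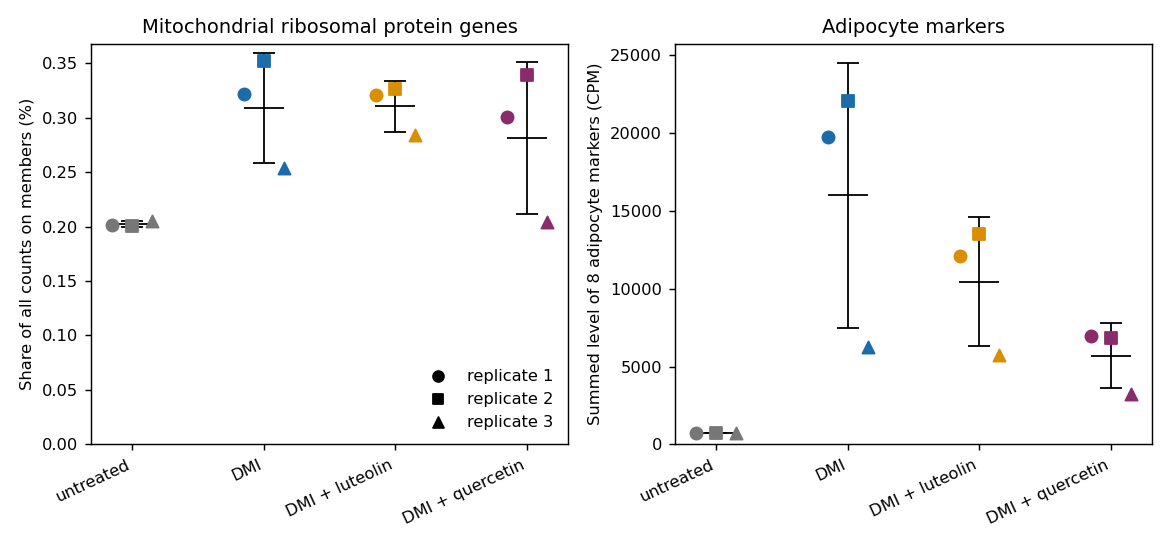
Left, share of all counts that fell on the 78 mitochondrial ribosomal protein genes, in percent, for each library; right, summed level of 8 adipocyte markers in CPM. Symbols are libraries by replicate number, and lines are group means with SD (n = 3). The third library (triangle) is the lowest of each induced group in both panels, and the third quercetin library, at 0.204%, sits at the untreated level of ribosomal protein counts.

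Induction raised many of these genes and lowered none at the threshold used. With DMI, 35 of the 77 tested genes rose and 0 fell in edgeR's quasi-likelihood test with an adjusted p threshold of 0.05, whereas 14.7% of all 14855 tested genes rose and 12.4% fell. The median log2 fold change of the 77 was 0.59, against -0.04 for all genes, and 75 of the 77 lay above 0. In 62 of them every DMI library exceeded every untreated library, an arrangement seen in 22.7% of all genes. Adipocyte markers rose in this comparison too (8 of 8, summed level 6263 to 22046 CPM with DMI). Within each induced group the third library was lowest in both these markers and the members' share of counts. Between groups they did not keep step, with 0.339% at 6834 CPM in quercetin replicate 2 and 0.322% at 19728 in DMI replicate 1. Quercetin replicate 2 departed from its group along gene length (Spearman's rho -0.58 over 10646 genes and -0.30 over the members). Of 6 preadipocyte and fibroblast markers 4 fell (summed level 23741 to 24524 CPM untreated, 8927 to 14664 with DMI), Pdgfra and Cd34 being the exceptions. The 4 proliferation markers summed to 333 to 366 CPM untreated and 222 to 269 with DMI, and to 361 in quercetin replicate 3 against 223 and 200 in its group. Counts from mitochondrial DNA went from 1.85% to 1.91% of all counts to 2.87% to 4.72%. The part of these in the result was not tested. The number of genes that rose depended on which libraries entered. It was 13 and 15 without untreated replicate 1 or 2 (16.9% and 19.5% of members, 9.81% and 9.97% of all genes). It was 9 and 8 without DMI replicate 1 or 2, where the members' shares of 11.7% and 10.4% were near the 8.83% and 8.34% of all genes. It was 64 without quercetin replicate 3, which enters only through the filter, the scaling and the shared estimate of the spread. With replicate 3 of all induced groups left out, 70 rose and the median was 0.76, while 27.5% of all genes rose. Of all genes 21.5% rose without quercetin replicate 3 alone.

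Both subunits held genes that rose with DMI, where 14.7% of all genes rose. In the large subunit 25 of 50 tested genes rose (median log2 fold change 0.58), and in the small subunit 9 of 26 (0.57). Of the genes with a bacterial counterpart 21 of 46 rose, and of those specific to mitochondria 13 of 30, with medians of 0.56 and 0.60. The difference between these classes was not tested.

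Among the large subunit proteins, Mrpl12 had the largest rise. It encodes the mitochondrial counterpart of the bacterial stalk protein that recruits translation factors, and is known also to bind the mitochondrial RNA polymerase. The gene (ENSMUSG00000039640) lies on chromosome 11 from 120484613 to 120489065 on the forward strand of GRCm38. Its levels were 17.7, 18.9 and 19.8 CPM in untreated libraries, 72.7, 95.6 and 37.2 with DMI, 68.8, 70.7 and 47.8 with luteolin, and 57.4, 55.5 and 11.4 with quercetin. Thus DMI and luteolin libraries lay above all untreated ones, whereas the quercetin group held both a high pair and the lowest library of all 12. The rise with DMI was 3.64-fold (adjusted p = 0.0136, log2 fold change 1.87 with an SE of 0.48, edgeR's quasi-likelihood test).

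Mrpl18 and Mrpl51 followed. Mrpl18, the counterpart of a bacterial protein that binds 5S ribosomal RNA, stood at 15.2, 18.7 and 17.1 CPM untreated and 49.6, 55.8 and 32.1 with DMI. Its libraries held 41.9, 43.5 and 30.5 CPM with luteolin and 34.7, 43.2 and 34.5 with quercetin. All induced libraries lay above all untreated ones, and quercetin replicates 1 and 3 were nearly level. It had the smallest adjusted p of the family with DMI (2.69-fold, log2 fold change 1.43, SE 0.21, adjusted p = 0.00073). Mrpl51, a protein specific to mitochondria, was at 40.6, 41.0 and 43.5 CPM untreated and 122, 148 and 63.1 with DMI. It rose 2.66-fold (adjusted p = 0.0207), with groups that did not overlap.

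The other large subunit genes among the 10 largest rises were Mrpl20 (2.47-fold), Mrpl34 (2.28-fold), Mrpl15 (2.21-fold) and Mrpl9 (2.01-fold), which have bacterial counterparts, and Mrpl46 (2.08-fold) and Mrpl44 (2.02-fold), which are specific to mitochondria. Their adjusted p-values lay between 0.00361 for Mrpl46 and 0.0259 for Mrpl34. In each of these genes the third DMI library was the lowest of its group and still above all untreated ones. Mrpl34, for example, had 61.0, 65.1 and 38.7 CPM with DMI against 22.7 to 25.6 untreated.

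In the small subunit Mrps21 rose most. It is the counterpart of a bacterial protein of the platform. Its levels were 14.2, 13.4 and 13.5 CPM untreated, 27.9, 35.0 and 27.8 with DMI, 26.0, 31.7 and 31.5 with luteolin and 31.5, 36.9 and 11.7 with quercetin. Here the third DMI library was nearly level with the first and the third luteolin library with the second, while the third quercetin library fell below all untreated ones. The rise with DMI was 2.21-fold (log2 fold change 1.15, SE 0.31, adjusted p = 0.0169). Next in size among those that passed were Mrps31 (1.85-fold), Mrps2 (1.81-fold) and Mrps35 (1.77-fold), while Mrps26 stood at 1.79-fold without passing (adjusted p = 0.0742). Mrps9 also passed (1.52-fold, adjusted p = 0.0328) although its lowest DMI library, at 27.8 CPM, did not exceed its highest untreated one, at 27.9 CPM.

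**Figure D2:**
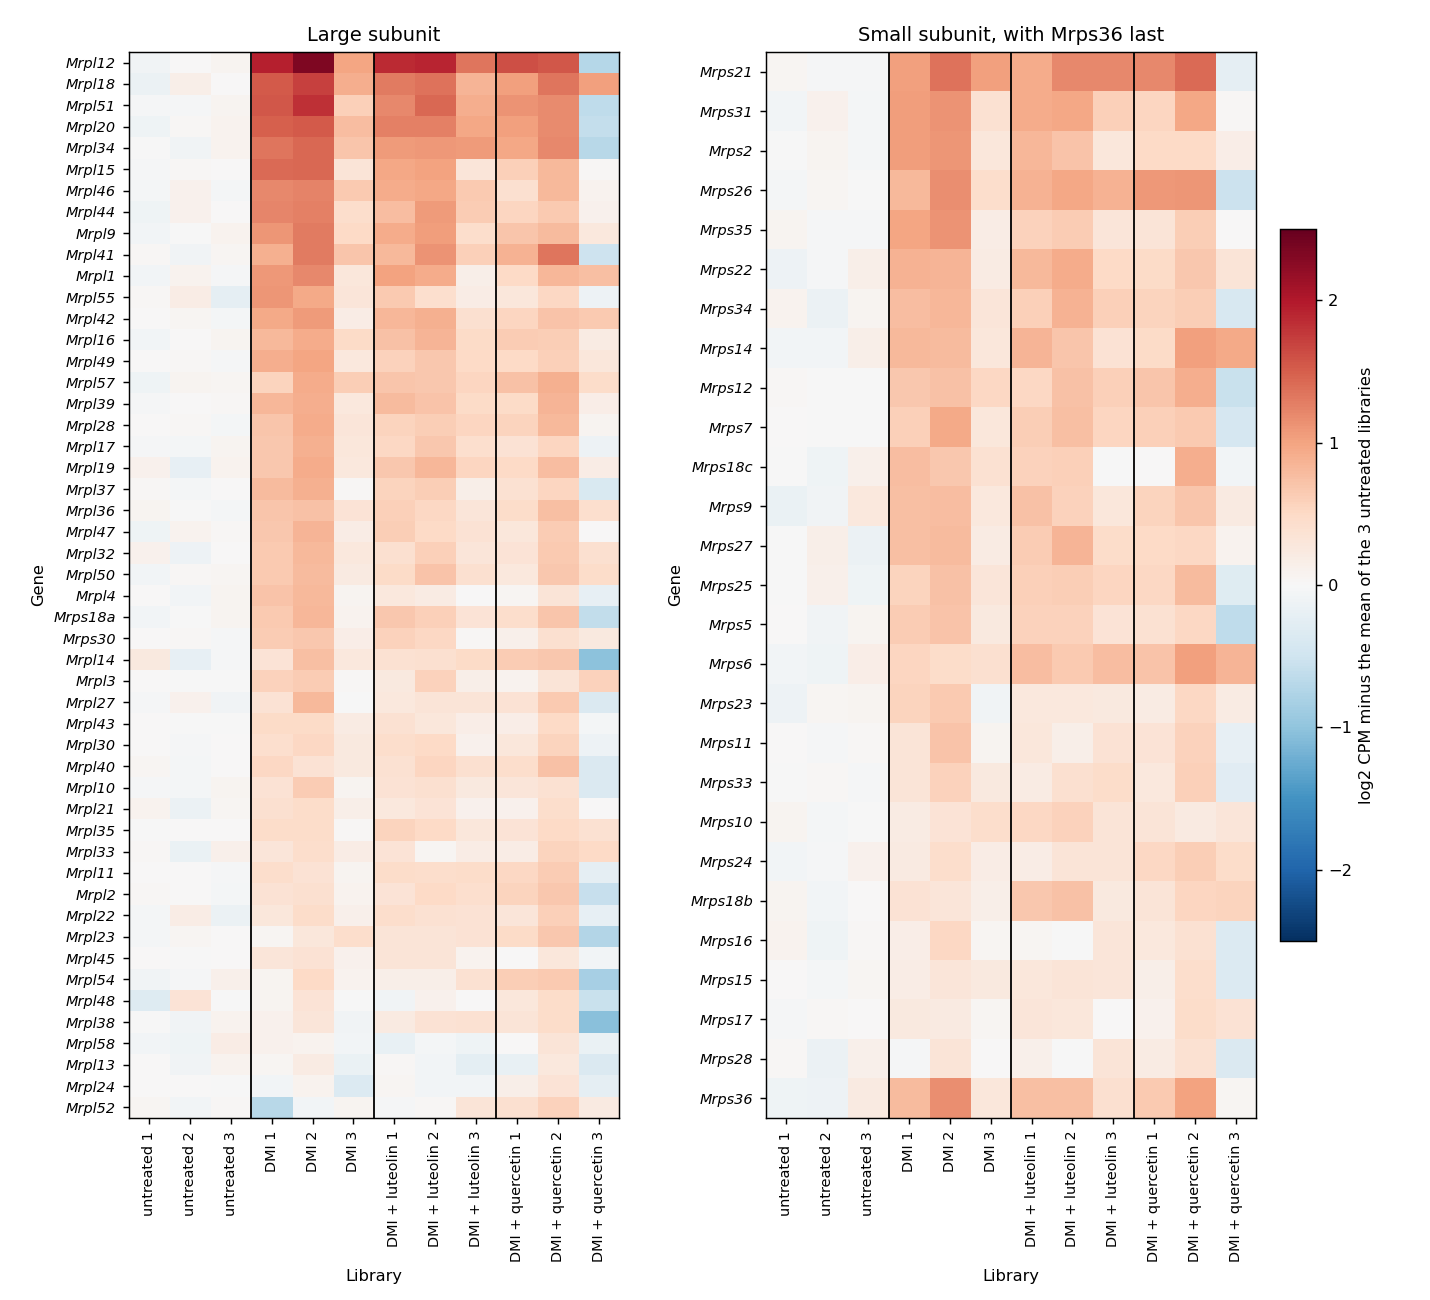
Level of each of the 77 tested genes (rows, ordered by their fold change with DMI) in each of the 12 libraries (columns), as log2 CPM minus the mean of the 3 untreated libraries. Red is above and blue below the untreated mean; the large subunit is on the left and the small subunit with Mrps36 on the right. Mrpl12 heads the large and Mrps21 the small subunit, the third DMI library is paler than the first and second for most genes, and the third quercetin library is blue for many genes.

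Some members stayed close to their untreated level. Mrpl13, which has a bacterial counterpart, had 51.8, 48.1 and 54.6 CPM untreated and 53.4, 59.5 and 45.6 with DMI (log2 fold change 0.04, 95% interval -0.32 to 0.39). Mrpl58, a peptidyl-tRNA hydrolase built into the large subunit, had 18.6, 18.0 and 22.3 CPM untreated and 21.1, 20.8 and 18.7 with DMI (0.04, interval -0.29 to 0.36). In both genes the groups overlapped. Only Mrpl52 (-0.20, adjusted p = 0.454) and Mrpl24 (-0.10, adjusted p = 0.673) had a log2 fold change below 0, and they were singled out after their values were seen. Mrpl52, which is specific to mitochondria, was at 19.1, 29.7 and 32.5 CPM with DMI against 29.5 to 32.3 untreated, so 1 DMI library set its mean apart.

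The 3 paralogs of bacterial S18 sit in different places, Mrps18a in the large subunit and Mrps18b and Mrps18c in the small subunit. None passed with DMI, although for each of them all DMI libraries lay above all untreated ones. Mrps18a was at 41.0, 43.0 and 45.4 CPM untreated and 68.1, 76.5 and 45.6 with DMI (log2 fold change 0.55, adjusted p = 0.151). Mrps18b was at 16.9, 15.3 and 16.1 CPM untreated and 20.6, 19.9 and 17.9 with DMI (0.27, adjusted p = 0.194). Mrps18c was at 11.7, 10.9 and 12.8 CPM untreated and 20.2, 18.8 and 15.4 with DMI (0.62, adjusted p = 0.0923). Mrps18b and Mrps18c share 30.5% and 23.2% of their exonic bases with overlapping genes, whose reads could not be told apart. Mrps36, outside the ribosome, rose from 12.6, 12.5 and 15.9 to 23.5, 30.5 and 16.6 CPM (1.72-fold, adjusted p = 0.0395).

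Per gene length, the genes of this family spanned a wide range of levels. On the deposited FPKM scale (a level scaled by gene length and library size) the highest mean over all 12 libraries was that of Mrpl34, at 69.1 FPKM. Next came Mrps6 (60.8), Mrpl28 (44.3) and Mrpl43 (41.3). In the small subunit Mrps21 (33.8) and Mrps7 (28.9) followed Mrps6. The lowest were Mrpl48 (1.78) and Mrpl47 (3.41) in the large subunit and Mrps10 (2.13) and Mrps25 (4.65) in the small. Mrpl34 went from 38.6 ± 2.28 FPKM untreated to 90.6 ± 23.0 with DMI (SD, n = 3), and Mrps6 from 40.7 ± 4.08 to 57.8 ± 2.29. The order at the top thus changed, with Mrps6 and Mrpl34 within their SD of each other in untreated cells and Mrpl34 higher with DMI. The neighbours Mrpl28 and Mrpl43 were within their SD of each other with DMI, at 51.7 ± 10.8 and 46.8 ± 4.96 FPKM. Mrps25 and Mrpl43 share 69.8% and 33.4% of their exonic bases with neighbouring genes, so their levels are uncertain.

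**Figure D3:**
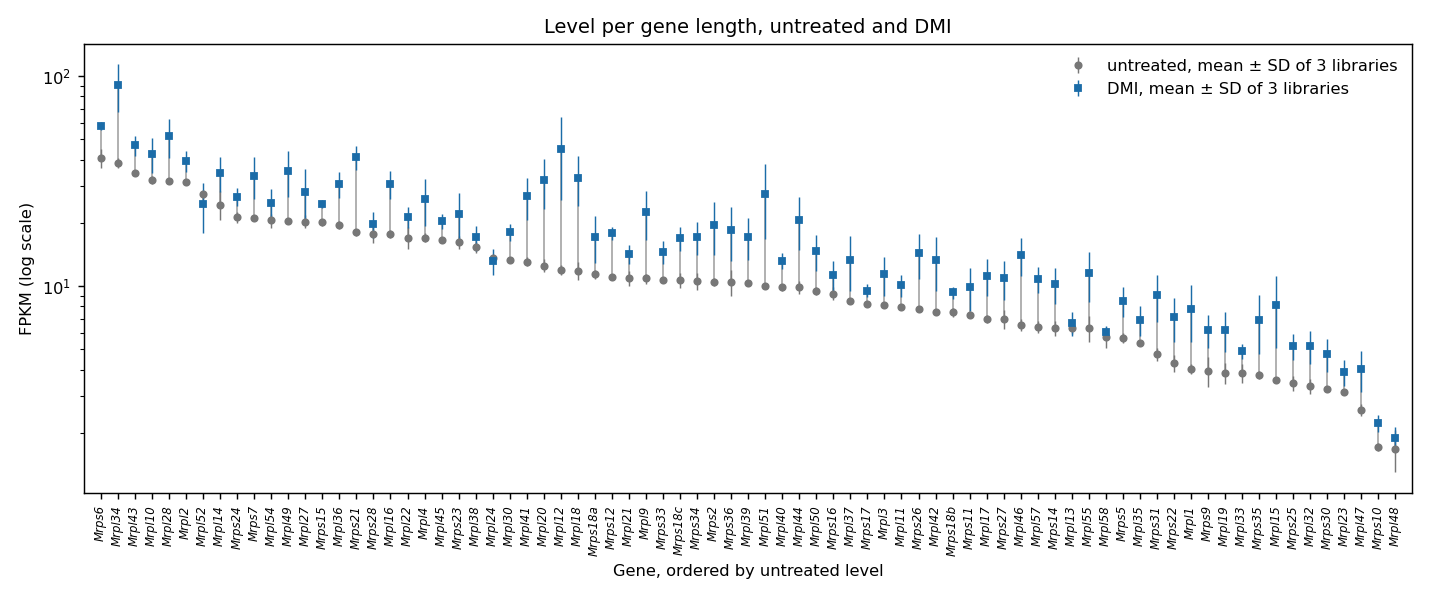
Level per gene length (FPKM, log axis) of the 77 tested genes in untreated (grey circles) and DMI libraries (blue squares), each the mean with SD of 3 libraries, ordered by the untreated level. Mrps6 and Mrpl34 lead the untreated order and Mrpl48 and Mrps10 end it; most squares lie above their circles.

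The family was set beside the proteins of the cytosolic ribosome and the respiratory chain. Of 82 tested cytosolic ribosomal protein genes 0 rose and 17 fell with DMI (median log2 fold change -0.32). Of all genes 14.7% rose and 12.4% fell. Of 92 tested nuclear genes of the respiratory chain 76 rose and 1 fell (median 1.16). This set was taken by the start of the symbol, so beside subunit genes it holds those of ATP synthase and of assembly factors named alike. The difference between the families was not tested.

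**Figure D4:**
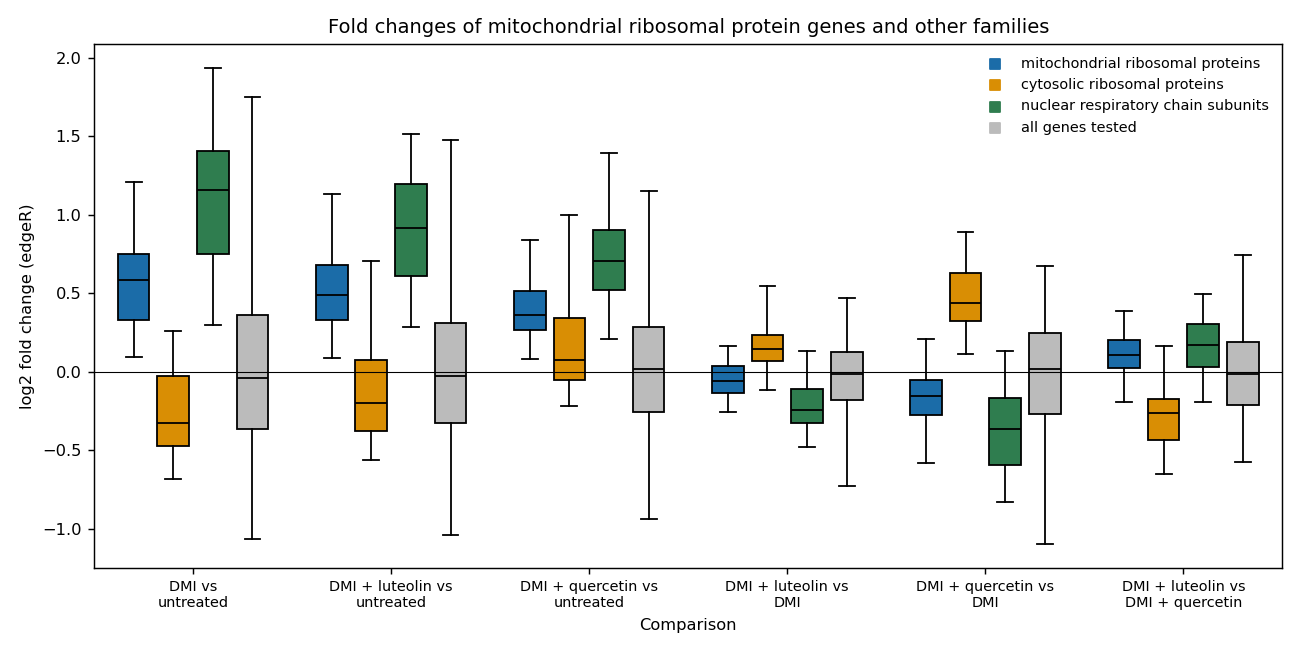
Log2 fold changes by edgeR of gene sets in 6 comparisons. The sets are the 77 mitochondrial and 82 cytosolic ribosomal protein genes, 92 nuclear respiratory chain genes and all 14855 tested genes. The respiratory chain set was taken by symbol and holds ATP synthase and assembly factor genes too. Boxes span the quartiles around the median, and whiskers run from the 5th to the 95th percentile. With DMI against untreated the medians are 0.59, -0.32, 1.16 and -0.04; comparisons that share a group share its libraries.

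Other genes of mitochondrial translation were read from lists. Beside the counts of these lists and those of the next paragraph, 14.7% of all genes rose with DMI and 12.4% fell. Of 11 tested translation factors 5 rose with DMI and 0 fell. They were the elongation factor genes Gfm1 (2.44-fold, adjusted p = 0.00348), Tufm (2.19-fold) and Tsfm (1.86-fold), Gfm2, which acts in ribosome recycling (2.62-fold), and the initiation factor gene Mtif3 (1.67-fold). Of 17 mitochondrial aminoacyl-tRNA synthetases 5 rose and 0 fell, with Iars2 at 2.33-fold. Of 22 ribosome assembly and rRNA modification factors 5 rose and 0 fell, among them the methyltransferase gene Mrm2 (1.82-fold) and Malsu1, a large subunit assembly factor (1.63-fold). Of 11 genes of mitochondrial transcription and genome maintenance 3 rose and 0 fell: Tfb2m (1.96-fold) and Polrmt (1.62-fold), which start transcription, and the DNA polymerase gene Polg (1.66-fold). Tfam, which packages mitochondrial DNA, was at 29.6 CPM untreated and 30.5 with DMI.

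Among 5 mitochondrial ribosomal proteins that carry other symbols only Ptcd3, a small subunit protein, passed (47.8 to 132 CPM, 2.76-fold, adjusted p = 0.00143). Dap3, also of the small subunit, stood at 65.7 and 89.6 CPM (adjusted p = 0.061). Of 9 nuclear regulators of mitochondrial genes 3 rose and 2 fell. Ppargc1b, a coactivator gene, went from 2.28 to 24.0 CPM (10.5-fold, adjusted p = 0.00145), Esrra, an orphan nuclear receptor gene, rose 2.93-fold and Myc 1.81-fold. Ppargc1a, the best known coactivator of mitochondrial biogenesis, fell from 47.1 to 28.9 CPM (1.63-fold lower, adjusted p = 0.0211), and the related Pprc1 fell 1.59-fold. Nrf1, Gabpa and Yy1, whose proteins bind the promoter motifs examined next, did not pass (adjusted p = 0.0771, 0.61 and 0.199).

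The promoters were examined because so many of these genes moved together. RefSeq windows of 250 bases before to 50 after the start (GRCm38.p6) were at hand for 69 of the 78 genes, matched by symbol. They were searched on both strands for 3 motifs: GCATGCG, the core of the site of NRF1; CCGGAAG, a site of ETS factors such as GABP; and AGATGGC, a site of YY1. CCGGAAG stood in 37.7% of the family's windows, in 20.2% of those of 9699 tested protein-coding genes and in 9.93% of all 27025. AGATGGC stood in 17.4%, 8.37% and 7.31%, and GCATGCG in 11.6%, 7.38% and 4.01%. Any of the 3 was found in 55.1%, 31.9% and 19.4%. Within the family, any of them stood in 45.2% of the windows of 31 genes that rose with DMI and in 62.2% of those of 37 tested genes that did not pass. A match is only a string of letters, and these differences were not tested.

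Shown are 5 windows, from 120 bases before the RefSeq start to the start or to the first annotated exon base, on the gene's strand, with matches in capitals. The choice was limited to genes with a single window, at least 90 bases before any annotated exon and the match within those bases. Within these limits they are the largest rise, which holds no match, the largest rise with an NRF1 core and with an ETS match, and the pair nearest to no difference with an ETS match. Over the full windows other genes with a larger fold change than Mrps22 hold an ETS match too. Among them are Mrpl18, Mrpl51, Mrpl34 and Mrps21, which passed, and Mrps26, which did not. Mrpl48, nearer to no difference than Mrpl52, also holds one. The NRF1 core of Mrpl9 reads on both strands, so overlapping matches are capitalised together, and the ETS match of Mrpl52 is on the opposite strand. Their coordinates are chr11:120484517-120484612 (Mrpl12, forward), chr3:94443216-94443317 (Mrpl9, forward), chr9:98601680-98601799 (Mrps22, reverse), chr11:115403632-115403751 (Mrpl58, forward) and chr14:54426789-54426908 (Mrpl52, forward).
Mrpl12: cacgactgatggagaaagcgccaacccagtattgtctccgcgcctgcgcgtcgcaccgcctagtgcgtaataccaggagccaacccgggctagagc
Mrpl9: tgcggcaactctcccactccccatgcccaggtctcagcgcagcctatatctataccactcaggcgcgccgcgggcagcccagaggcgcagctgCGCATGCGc
Mrps22: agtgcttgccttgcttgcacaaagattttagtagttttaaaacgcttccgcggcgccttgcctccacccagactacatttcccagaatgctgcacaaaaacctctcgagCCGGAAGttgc
Mrpl58: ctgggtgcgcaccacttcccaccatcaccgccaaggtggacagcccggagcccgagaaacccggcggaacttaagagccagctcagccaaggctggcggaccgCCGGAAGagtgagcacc
Mrpl52: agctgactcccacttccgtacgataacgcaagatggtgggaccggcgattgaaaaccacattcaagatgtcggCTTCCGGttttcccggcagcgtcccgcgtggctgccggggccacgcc
Mrpl12 and Mrps22, which rose 3.64-fold and 1.60-fold with DMI, thus differ in these letters, and Mrpl58 and Mrpl52 hold the ETS letters without a rise.

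Luteolin with DMI was set against DMI alone to ask whether the compound shifts the induced level. No member of the family passed (0 of 77), and 3 of 14855 genes did, 0.0202% of all. At an unadjusted p under 0.05 there were 2 members, a count given without its share over all genes. DESeq2 called 0 members as well, beside 0.101% of all genes as higher and 0.222% as lower. The median log2 fold change was -0.06, against -0.02 over all genes, and 22 members lay above 0. Mrpl12 stood at -0.13 with a 95% interval from -1.13 to 0.86, so the 3 libraries a group leave its difference loosely bounded. With the replicate number as a block the count was 0 too. With replicate 3 of all induced groups left out 6 passed, 1 higher (1.3% of members, 4.14% of all genes) and 5 lower (6.49% and 6.23%), Mrpl4 (log2 fold change -0.50, adjusted p = 0.00467) among them.

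Named by the lowest p in this comparison were Mrps6, Mrpl4 and Mrps18b. Mrps6 encodes the counterpart of a bacterial protein of the small subunit platform, and 19.9% of its exonic bases are shared with other genes, among them Slc5a3. It had 61.1, 59.6 and 71.5 CPM untreated, 92.5, 88.1 and 84.7 with DMI, 110, 101 and 109 with luteolin and 105, 130 and 115 with quercetin. All libraries of either compound lay above all DMI libraries, which in turn lay above all untreated ones. With luteolin the difference from DMI was 1.20-fold (log2 fold change 0.27, SE 0.12, adjusted p = 0.812). Such an order, every luteolin library above every DMI one, was met in 2 members and in 6.23% of all genes. Mrpl4, the counterpart of a bacterial large subunit protein, had 74.7, 80.7 and 48.0 CPM with DMI and 55.1, 52.4 and 45.7 with luteolin, which overlap (-0.41, adjusted p = 0.812). Mrps18b had 25.8, 26.7 and 19.0 CPM with luteolin (0.29, adjusted p = 0.846). Nearest to 0 were Mrpl54 (-0.00, 95% interval -0.64 to 0.64) and Mrps14 (-0.00, interval -0.42 to 0.41).

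Many members also rose in the luteolin group against untreated cells. Of 77 members 26 rose and 0 fell, while 10.5% of all genes rose and 8.74% fell. The median log2 fold change was 0.49, and in 65 members every luteolin library exceeded every untreated one, as in 25% of all genes. The DMI and luteolin comparisons share the untreated libraries. Of the 26 genes 23 (88.5% of the 26 and 65.7% of the 35) also rose with DMI, and Mrpl35, Mrps10 and Mrps18b did not pass there. The largest rises were Mrpl12 (3.32-fold), Mrpl18 (2.27-fold, adjusted p = 0.00271), Mrpl20 (2.24-fold), Mrps21 (2.18-fold) and Mrpl34 (2.11-fold). They were followed by Mrpl46 (1.82-fold), Mrps31 (log2 fold change 0.85), Mrpl44 (1.79-fold), Mrpl9 (1.77-fold) and Mrps22 (1.69-fold), a protein specific to the mitochondrial small subunit. Mrps6 passed with the smallest adjusted p, 0.00169 by edgeR (1.66-fold), and Mrpl48 (-0.01) and Mrpl24 (-0.03) were nearest to 0. The count was 2, 5 and 11 without untreated replicate 1, 2 or 3 (2.6%, 6.49% and 14.3% of members, 5.13%, 5.4% and 6.3% of all genes). It was 4 and 3 without luteolin replicate 1 or 2 (5.19% and 3.9% of members, 5.1% and 4.62% of all genes). In 4 of these 5 omissions the members' share was thus near or below that of all genes. The count was 57 without quercetin replicate 3, where 18.2% of all genes rose. It was 67 with replicate 3 of all induced groups left out, where 25% of all genes rose.

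Quercetin with DMI against DMI alone gave no call in the family either (0 of 77), where 1.01% of all genes passed, 0.162% higher and 0.848% lower. DESeq2 called 1 member, as higher (1.3%), beside 1.72% of all genes as higher and 4.91% as lower. At an unadjusted p under 0.05 there were 9 members. This count is not read as a result, since its share over all genes is not given. The median was -0.15 against 0.02 for all genes. The members with the lowest p were Mrps6 (1.32-fold higher, adjusted p = 0.101), Mrpl52 (1.53-fold higher, adjusted p = 0.104) and Mrpl46 (1.51-fold lower, adjusted p = 0.134). Mrpl52 had 41.3, 46.3 and 36.4 CPM with quercetin, all above the DMI libraries and above all untreated ones. Mrpl46 had 12.7, 16.7 and 10.1 CPM with quercetin and 22.1, 22.5 and 15.0 with DMI, which overlap. Nearest to 0 were Mrpl23 (-0.00, 95% interval -0.58 to 0.58) and Mrps28 (0.00, interval -0.42 to 0.42). Every quercetin library exceeded every DMI library in 3 members, Mrps6, Mrpl52 and Mrps24, and in 6.68% of all genes.

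The result of this comparison rested on the third libraries. Without DMI replicate 3 there were 10 calls, 1 higher and 9 lower, beside 7.15% and 10.2% of all genes. Without quercetin replicate 3 there were 0 calls and the median was 0.01. With replicate 3 of all induced groups left out 24 members passed, 4 higher and 20 lower (5.19% and 26% of members), while 17% of all genes passed as higher and 16.4% as lower. Lower among the 24 were Mrpl15 (log2 fold change -0.69), Mrpl44 (-0.62), Mrpl46 (-0.58), Mrps35 (-0.56), Mrps2 (-0.56) and Mrpl12 (-0.55), and higher were Mrpl52 (0.88), Mrpl23 (0.45), Mrps6 (0.40) and Mrpl2 (0.25). Of the 24, 21 belong to the large subunit and 3 to the small. This omission was chosen with the data in view and leaves 2 libraries per induced group. In the libraries it leaves, adipocyte markers summed to 19728 and 22046 CPM with DMI and to 6991 and 6834 with quercetin, and their part in these values was not tested.

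Against untreated cells 6 members rose with quercetin and 0 fell, where 4.79% of all genes rose and 4.66% fell. The median log2 fold change was 0.36, and 76 of 77 members lay above 0. Every quercetin library exceeded every untreated one in 29 members and in 14.8% of all genes. The 6 were Mrpl18 (2.20-fold, adjusted p = 0.00598), Mrps6 (1.82-fold, adjusted p = 0.00121), Mrps14 (1.79-fold), Mrpl57 (1.63-fold), Mrpl36 (1.46-fold) and Mrps24 (1.45-fold). All but Mrps24 had also risen with DMI, a comparison that shares the untreated libraries. Nearest to 0 were Mrpl38 (0.05) and Mrpl58 (0.07). Mrps24, the counterpart of a bacterial small subunit protein, had 30.5, 31.3 and 34.2 CPM untreated, 37.1, 43.5 and 36.5 with DMI, 36.5, 39.8 and 39.9 with luteolin and 46.0, 49.2 and 43.8 with quercetin. In this gene the quercetin libraries were above all the others. The count of 6 (7.79% of members) became 53 without quercetin replicate 3 (68.8% of members, 13.9% of all genes). It was 73 with replicate 3 of all induced groups left out (94.8% and 24%) and 17 without DMI replicate 3 (22.1% and 7.82%). Without quercetin replicate 2 it was 2, where the members' share of 2.6% was near the 1.82% of all genes. It was 2 and 3 without untreated replicate 1 or 2 (2.6% and 3.9% of members, 1.46% and 1.6% of all genes). Without quercetin replicate 3 Mrpl12 passed as well (3.15-fold, adjusted p = 0.00426).

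The third quercetin library was below both others of its group for 63 of 77 members (81.8%), as for 42.0% of 10646 genes at or above 5 CPM. The median difference of its log2 CPM from the mean of the other 2 was -0.52 over the members. Its deviations ran with transcript GC content. Spearman's rho was -0.62 over the 10646 genes and -0.44 over the 77 members, as a description within this library. The same deviations, from the group's other libraries, gave 0.64 and 0.47 for quercetin replicate 1 and 0.36 and 0.38 for replicate 2, each of which has replicate 3 among the libraries it is set against. Members above the median GC content of 49.7% had a median difference of -0.65, and the rest -0.46. The largest differences were those of Mrpl12 (4.93-fold lower, GC 56.1%), Mrpl51 (3.47-fold, 44.9%) and Mrpl34 (3.40-fold, 58.3%), whereas Mrpl3 (45.6%) and Mrps14 (39.6%) were higher in it than in the others. A correction for GC content, added after seeing the data, gave 10 members higher with quercetin than untreated, in place of 6, while 6.97% of all genes rose in place of 4.79%. DMI replicate 3 was likewise the lowest of its group in 70 members (90.9%, against 45.9% of genes) and luteolin replicate 3 in 52 (67.5%, against 41.9%). For these libraries rho along GC content was 0.05 and 0.25 over the genes, and 0.18 and 0.45 over the members. Over the members, luteolin replicate 3 thus departed along GC content about as strongly as quercetin replicate 3, with the opposite sign.

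**Figure D5:**
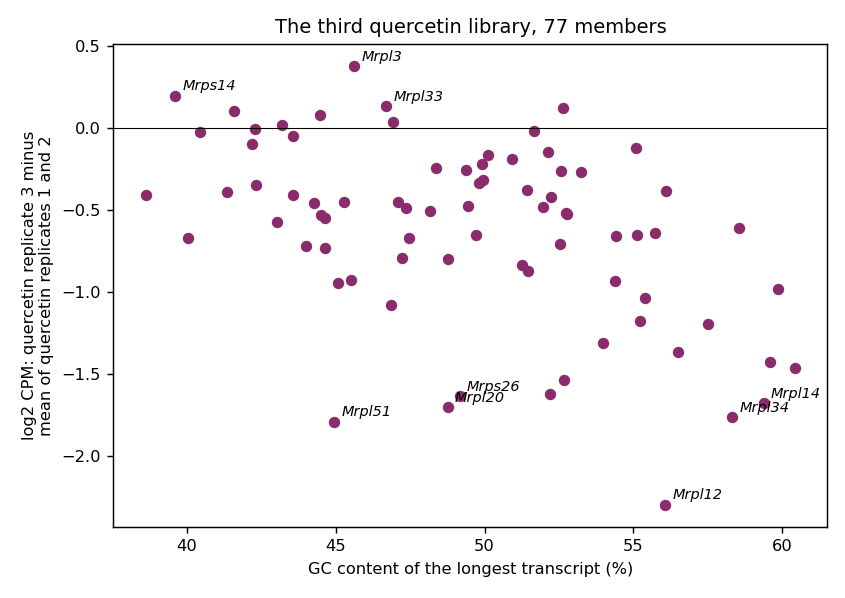
Difference of log2 CPM between quercetin replicate 3 and the mean of quercetin replicates 1 and 2 (vertical axis) against GC content of the longest transcript in percent (horizontal axis), 1 point for each of the 77 members. Most points lie below 0, and the lowest is Mrpl12 at -2.30.

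Luteolin and quercetin were also set against each other. No member passed (0 of 77), nor did any of the 14855 genes (0%). At an unadjusted p under 0.05 there was 1 member, a count given without its share over all genes. DESeq2 called 0 members, beside 0.00673% of all genes as higher and 0.0135% as lower. The median log2 fold change, luteolin minus quercetin, was 0.11. The lowest p belonged to Mrps24 (-0.26, 95% interval -0.51 to -0.01, adjusted p = 0.552), Mrpl46 (0.39, interval -0.05 to 0.84, adjusted p = 0.56) and Mrpl44 (0.39, interval -0.08 to 0.85, adjusted p = 0.573). Nearest to 0 were Mrps11 (-0.00, interval -0.44 to 0.43) and Mrps16 (-0.00, interval -0.41 to 0.40). Mrps24 was lower in every luteolin than in every quercetin library, as were 5.07% of all genes. For Mrpl12 the interval ran from -0.41 to 1.59, so the data do not show that the compounds act alike on it. Without quercetin replicate 3 the median was -0.04, and with replicate 3 of all induced groups left out 3 members passed. Mrps2 was higher with luteolin, as were 6.95% of all genes, and Mrpl54 and Mrpl52 were lower, as were 6.83%.

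In the authors' deposited table, 56 members pass 0.05 for DMI against untreated, 62 for luteolin and 11 for quercetin against untreated. All of these are higher, beside 21.5%, 23.5% and 7.65% of all genes in either direction. Among induced groups 0 members pass. There 0.252% of all genes pass for luteolin against DMI, 1.51% for quercetin against DMI and 0.0663% for luteolin against quercetin. All 35, 26 and 6 calls made here are among those of the authors' deposited table.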

How the data were processed

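RNA-seq libraries from 12 samples of 3T3-L1 cells were used, 3 per group, grouped by titles and treatment labels; columns were matched to samples through the sample descriptions. Raw read counts per gene, FPKM values, log2 fold changes and adjusted p-values were deposited by the authors in 1 table. The submitters' processing notes name CASAVA 1.8.2, featureCounts 1.5.0-p3 and the build mm9. However, 98.3% of gene coordinates in the table, and those of 73 of the 78 members, equal GENCODE release 21 (GRCm38), which was used for positions, exon overlap and GC content. The sources used here name neither the aligner nor the authors' comparison tool. The kit named in the labels' protocols does not mark strand, so reads from bases shared by overlapping genes cannot be told apart by strand. Whether such reads were counted or left out was not examined.

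Deposited counts were fitted for all genes and all 4 groups together with edgeR 4.0.16 in R 4.3.3 (TMM scaling, low-count filter, quasi-likelihood test, Benjamini-Hochberg adjustment per comparison, threshold 0.05); CPM values are TMM-adjusted. The filter kept 14855 of 54532 genes, and 27 date-like symbols were replaced through their gene IDs. Library totals of 14522182 to 19436796 counts set the precision. DESeq2 1.42.0, other scalings, no filter, a replicate block, fits of the compared groups alone, omitted libraries and a GC correction were alternatives. The fit was tested on simulated counts for DMI against untreated. It called 12.0% of genes changed 1.5-fold, 60.0% of those changed 2-fold and 90.0% of those changed 4-fold. Of its calls 4.3% were unchanged genes. Most changes of 1.5-fold were thus missed there.

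Genes were named by rule: the 10 largest rises and falls that passed, or the 3 lowest p where none did, the 2 nearest to 0, the 3 highest and 2 lowest FPKM per subunit, the S18 paralogs, Mrps36 and members that failed the filter, and up to 3 genes of each pathway list. Other genes named were chosen after their values were seen. Map1d, on the translation factor list, was not matched. The members and lists were chosen with earlier results of these data known.

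Replicate numbers are shared between groups, and the labels do not say what they mark. Deviations of same-numbered DMI and luteolin libraries correlated (r = 0.26, 0.34 and 0.59). However, luteolin replicate 1 correlated with DMI replicate 2 too (r = 0.23), and luteolin replicate 2 with DMI replicate 1 (r = 0.37). Pairing by replicate number is therefore not shown. The main fit used no block, and a fit with the replicate number as a block was an alternative. For the other comparisons at least 1 same-numbered pair stayed under 0.1.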

Additional observations from a re-analysis of the deposited data

How the results depend on the processing

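The direction of the family's median with induction held in the alternatives run, whereas the number of genes that passed did not. With DMI against untreated, 59 members passed in a fit of those 6 libraries alone (19.7% of all genes rose in it), 70 with replicate 3 of all induced groups left out (27.5%) and 54 with the GC correction and replicate block together (20.3%), against 35 (14.7%). With luteolin against untreated, 42 passed with no filter (7.67% of all genes), 63 with 6 libraries (21.9%), 67 without the third libraries (25%) and 47 with GC correction and block (16.6%), against 26 (10.5%). Its median was 0.58 with library totals as scaling, 0.56 with no filter and 0.65 without the third libraries. With quercetin against untreated, the count of 6 became 13 with library totals (6.45% of all genes), 27 with no filter (5.39%), 16 with DESeq2 (8.51%), 12 with the replicate block (7.34%), 73 without the third libraries (24%, median of members 0.61), 10 with GC correction (6.97%) and 23 with GC correction and block (11%). For luteolin against DMI it became 6, and for luteolin against quercetin 3, without the third libraries. For quercetin against DMI it became 5 with no filter (1 higher, 4 lower; 2.04% and 3.94% of all genes), 1 with DESeq2 (higher; 1.72%), 2 with the replicate block (1 each way; 3.33% and 6.06%), 24 without the third libraries and 7 with GC correction and block (2 higher, 5 lower; 5.57% and 8.45%). For luteolin against DMI the replicate block changed no member's call. The untreated share of counts was 0.206% when mitochondrial DNA genes were left out of the total, against 0.322% with DMI, 0.324% with luteolin and 0.292% with quercetin.

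When single libraries were left out, the count ranged from 8 to 64 with DMI, 2 to 57 with luteolin and 2 to 53 with quercetin against untreated, and from 0 to 10 for quercetin against DMI; it was 0 for luteolin against DMI or quercetin. Medians ranged from 0.45 to 0.72, 0.46 to 0.59 and 0.24 to 0.61 against untreated, from -0.20 to 0.06 and -0.32 to 0.01 for luteolin and quercetin against DMI, and from -0.04 to 0.28 for luteolin against quercetin. Shares ranged from 0.201% to 0.203% untreated, 0.288% to 0.337% with DMI, 0.302% to 0.324% with luteolin and 0.252% to 0.320% with quercetin. The sign of the log2 fold change with DMI turned for Mrpl13 (-0.01 without untreated replicate 2 and -0.057 without DMI replicate 2), Mrpl58 (-0.022 without untreated replicate 2) and Mrpl48 (-0.030 without untreated replicate 1), none of which had passed; over all omissions they ranged up to 0.13, 0.17 and 0.30. The cause of these shifts was not tested; omitting libraries also changes the number of samples and the spread.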
